A study of Homo sapiens with 24 samples.

Results

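Long intergenic RNAs (lincRNAs) that were expressed in 3 human cancer cell lines were followed after knockdown of GCDH. They are the rows of the expression table that carry the biotype lincRNA and a mean of at least 3 TPM (a length-corrected transcript level that sums to the same total in each library) over 18 libraries. Rows of the small nucleolar RNA host family SNHG, GAS5, DANCR and a set of clone-named copies on chromosome 21 were left out by name. This gave 358 members of 60504 rows, among 7668 lincRNA rows, of which 7297 lay under 3 TPM and 13 were left out by name, 9 of them at 3 TPM or more. The last members inside the threshold were LINC00106 (3.03 TPM), RP11-96H19.1 (3.05) and FTX (3.05), and the first rows outside it were AC001226.7 (2.99), RP3-522D1.1 (2.99) and AC058791.1 (2.98). Because the mean over both treatments chose the members, their levels are given as a description, and the effect of the knockdown was tested.

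Cells of the melanoma line A375, of SK-Hep1 (liver by its label) and of SKBR3 (breast by its label) were transfected with siRNA against GCDH (siGCDH) or with control siRNA (siControl) and collected after 48 h. The product of GCDH, glutaryl-CoA dehydrogenase, acts in mitochondria on the path that degrades lysine, and the series title ties its loss in melanoma to the transcription factor NRF2. Each of the 8 groups holds 3 libraries from wells seeded in triplicate, so the p-values measure the spread between wells, which may be technical. The rule used 18 libraries, those of SK-Hep1, SKBR3 and A375 batch 2, prepared by poly(A) selection and a directional kit that covers whole transcripts. The 6 libraries of A375 batch 1 were prepared with a kit that reads 3-prime ends, so levels are not compared between the kits. TPM values keep no read totals, and the depth of each library is unknown.

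LincRNAs are transcribed by RNA polymerase II from their own promoters, are often spliced and polyadenylated like messenger RNA, and encode no long protein. Some build nuclear bodies or hold RNA-binding proteins, some are processed into microRNAs, and many start next to a coding gene, on the opposite strand, and are short-lived nuclear transcripts removed by the RNA exosome. Their levels are low and differ strongly between cell types, and several are classical targets of the transcription factor p53.

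GCDH itself fell to 17.8% of siControl in A375 batch 2, 29.3% in SK-Hep1 and 26.4% in SKBR3 (limma adjusted p = 1.41e-05, 7.09e-05 and 6.39e-05), and stood at 20.8% in batch 1, where the change did not pass (adjusted p = 0.118). By an exact permutation test (two-sided) p was 0.1 in every line and batch, the smallest that 3 against 3 libraries allow. The libraries labelled SKBR3 carried 6 of 11 breast epithelial markers at 1 TPM or more, with a summed level of 65.5 to 68.6 TPM in siControl, ERBB2 at 25.5 TPM and KRT19 at 0.227 TPM, although SKBR3 is known for ERBB2 amplification, and SK-Hep1 carried 8 of these markers. The libraries labelled SKBR3 are called so here after the label alone. SK-Hep1 held 1 of 9 liver markers and 0 of 7 endothelial ones, and A375 held 7 of 11 melanoma markers, with SOX10 at 457 TPM and TYR listed at 0. The number of rows at 1 TPM or more was 15140 to 15181 in the siControl and 17112 to 17251 in the siGCDH libraries of SKBR3, and the upper quartile of all rows went from 1.01 to 2.06 TPM there. In A375 batch 1, rows that overlap ribosomal RNA genes took 17.1% of TPM with siControl and 33.0% with siGCDH, so that the other rows of that batch share a smaller total.

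The 358 members are mostly low: their median over the 18 libraries was 6.21 TPM, 265 lay under 10 TPM and 22 reached 30 TPM. NEAT1 led with a mean of 357 TPM, followed by LINC02154 (172 TPM), NORAD (166 TPM) and CYTOR (90.6 TPM). Such means can rest on a single line. LINC02154 (GS1-600G8.5) had 430.1, 425 and 431 TPM in the SK-Hep1 siControl libraries, 0.18, 0 and 0.15 TPM in A375 batch 2 and 0.51, 0.25 and 0.18 TPM in SKBR3, and rose to 598, 612 and 604 TPM with siGCDH in SK-Hep1 (0.50 on the log2 scale, adjusted p = 1.34e-05). With siControl, 166 members reached 1 TPM in all 3 lines, 108 in 2 lines, 82 in 1 line and 2 in none. SKBR3 held the highest siControl level of 176 members, A375 of 94 and SK-Hep1 of 88. In GENCODE 29 on GRCh38, 347 members have an entry, 322 still as lincRNA, and 340 have a current symbol or identifier. Among those with an entry 85 have a single exon, 56 overlap a coding gene on the opposite strand, and 106 are divergent, which here means that they start within 1000 bp of a coding gene's start and run the other way. The median distance to the nearest coding gene was 3703 bp. For 2 members no values are described by name.

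The summed level of the members was higher with siGCDH in each of the 3 lines of the rule. As a share of all TPM it went from 0.315% to 0.38% in A375 batch 2, from 0.402% to 0.612% in SK-Hep1 and from 0.357% to 0.642% in SKBR3, as means of 3 libraries. No siGCDH library overlapped a siControl library of its line. In A375 batch 1 the share went from 0.487% to 0.448%, with overlapping groups. With the ribosomal rows left out of the total, an alternative added after seeing the data, it turned to a rise from 0.586% to 0.67% (0.534 to 0.618% against 0.646 to 0.698%, without overlap). Without the 3 highest members the shares were 0.299% and 0.358%, 0.302% and 0.454%, and 0.281% and 0.526% in the same order of lines. Antisense rows, which are not members, moved alongside in SKBR3, from 0.712% to 1.23% of TPM, and sense intronic rows from 0.0503% to 0.0946%; their part in the members' result was not tested. Since these are bulk cultures, less RNA per cell and fewer cells that make it cannot be told apart for any value given here.

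**Figure D1:**
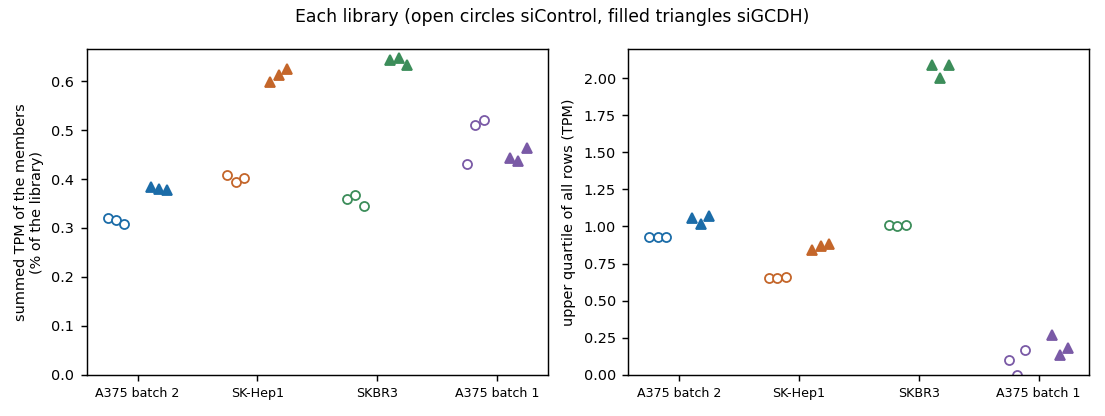
Each point is 1 library, with siControl as open circles and siGCDH as filled triangles, for the 3 lines of the rule and A375 batch 1. The left panel shows the summed TPM of the 358 members as a percentage of the library, which in SKBR3 went from a mean of 0.357% to 0.642%, and the right panel the upper quartile of all rows in TPM, which went from 1.01 to 2.06 there.

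In each of the 3 lines more members rose than fell, by the counts that follow. In A375 batch 2, limma called 56 of 281 tested members higher and 24 lower (19.9% and 8.54%), beside 17.9% and 15.7% of all 15185 rows tested. The share of rises there lies near that of all rows. In SK-Hep1, 142 of 268 were higher and 14 lower (53% and 5.22%), beside 37.3% and 18.2% of all rows. SKBR3 had 202 of 283 higher and 10 lower (71.4% and 3.53%), beside 47.3% and 14.7% of all rows. The median log2 change of the members was 0.18, 0.50 and 0.93 in these lines, beside 0.02, 0.18 and 0.29 over all rows. Coding rows had medians of 0.01, 0.16 and 0.23, and antisense rows of 0.12, 0.41 and 0.91. These rows had to pass the 1 TPM filter alone and members the 3 TPM rule as well, so the medians stand at unlike thresholds. Rises of at least 1 on the log2 scale were called for 16, 61 and 135 members and falls of that size for 2, 3 and 1. Over all rows tested, such rises were called for 292 of 15185, 784 of 14557 and 2280 of 16494, and such falls for 225, 518 and 288.

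The scale of the libraries shifts these values. With every library brought to the same median, the medians of all rows became 0.02 in A375, 0.08 in SK-Hep1 and 0.08 in SKBR3, and those of the members 0.17, 0.41 and 0.72; with quantile normalization they were 0.01, 0.04 and -0.01 for all rows and 0.14, 0.33 and 0.51 for the members. The members' median above that of all rows was 0.15, 0.32 and 0.63 as deposited and 0.13, 0.29 and 0.52 with quantile normalization. In SKBR3 quantile normalization gave 153 higher and 36 lower in place of 202 and 10, beside 25.7% and 26.1% of all rows.

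The rule also admits a row that is high in 1 group alone. To narrow that route, the lincRNA rows were chosen again by their siControl level, with a mean of at least 3 TPM over the 9 siControl libraries. Then 47 of 221 tested rows were higher and 25 lower in A375 batch 2 (median 0.13), 104 of 208 and 18 in SK-Hep1 (0.43) and 110 of 188 and 11 in SKBR3 (0.51). All rows had 17.9% higher and 15.7% lower, 37.3% and 18.2%, and 47.3% and 14.7% in these lines. This choice favours rows that are high with siControl, and so leans towards falls. Rows chosen for each line by the 12 libraries of the other 2 lines had medians of 0.15, 0.52 and 0.63, with 44 higher and 23 lower of 254, 127 and 15 of 246, and 106 and 10 of 175. The order of the lines stayed the same in both choices, and the SKBR3 median fell from 0.93 to 0.51 or 0.63. Both choices kept the filter of the fits, a mean of 1 TPM over both treatments of a line. A row near 0 with siControl in a line was thus tested there only if siGCDH raised it.

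**Figure D2:**
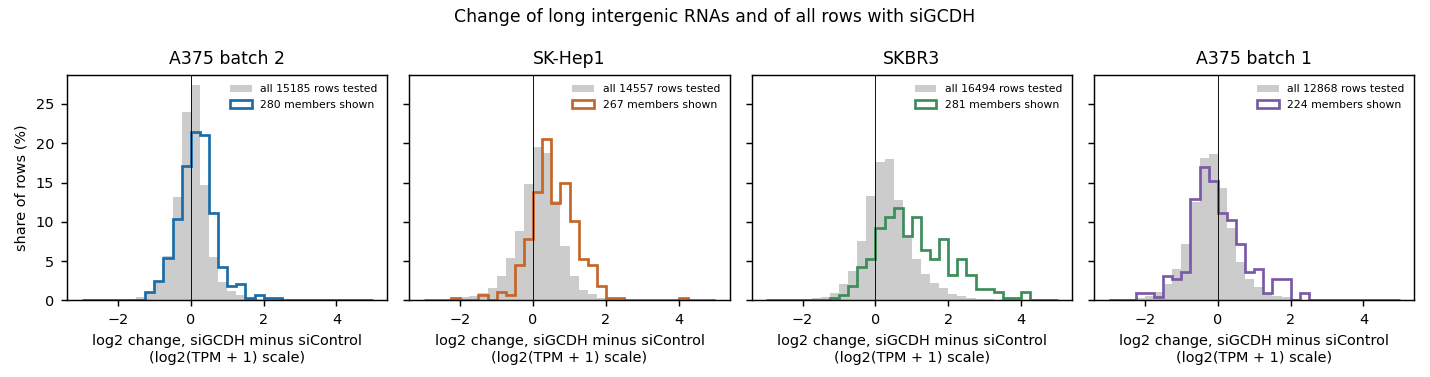
Histograms of the log2 change with siGCDH, as a share of rows in percent, for all tested rows (grey) and for members (outline, without the 2 members not described by name), in 1 panel for each line or batch. The members' median lies at 0.18 in A375 batch 2, 0.50 in SK-Hep1, 0.93 in SKBR3 and -0.11 in A375 batch 1, beside 0.02, 0.18, 0.29 and -0.20 for all rows.

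Whether the knockdown acted differently on a member in 2 lines was tested as the difference between the 2 log2 changes. Between A375 batch 2 and SK-Hep1 limma called 98 of 218 members, 22 with the higher change in A375 and 76 with the higher change in SK-Hep1 (10.1% and 34.9%), beside 18.2% and 31.8% of all rows. Between A375 and SKBR3 it called 137 of 226, 18 in favour of A375 and 119 in favour of SKBR3 (7.96% and 52.7%), beside 16.3% and 36.8% of all rows. Between SK-Hep1 and SKBR3 it called 86 of 216, 24 and 62 (11.1% and 28.7%), beside 15.6% and 21.5% of all rows. The median differences were -0.32, -0.78 and -0.28 for members and -0.16, -0.22 and -0.06 for all rows. With rows chosen by the 9 siControl libraries they were -0.31, -0.49 and -0.09, with 83 of 177, 92 of 170 and 62 of 160 called.

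The split of these calls moved with the scale. Quantile normalization gave 32 against 87 between A375 and SKBR3 and 33 against 47 between SK-Hep1 and SKBR3, and median scaling gave 35 against 57 for the latter. In rows of at least 5 TPM the last comparison turned to 20 against 14, with a median of 0.05. All 3 differences were called for 21 members of the 186 that were tested in every line. The share of all rows with all 3 called was not counted. Single differences were called for 50.1%, 53% and 37.1% of all rows, so the count is not read as a trait of the members.

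The changes of the same members in pairs of lines were set side by side. Spearman's rho over members was 0.41 between SK-Hep1 and SKBR3 (216 members), 0.12 between A375 and SK-Hep1 (218) and 0.05 between A375 and SKBR3 (226), beside 0.52, 0.11 and 0.11 over all rows. Members share their libraries, so these are descriptions without a test. Of the 186 members tested in all 3 lines, 53 were called higher in SK-Hep1 and SKBR3 and not in A375, 16 were higher in all 3, none was lower in all 3, and 21 were called in no line (28.5%, 8.6%, 0% and 11.3%). Of the 12258 rows of any kind tested in all 3 lines, 16.2%, 5.97%, 2.59% and 14.2% had these patterns. Under median scaling and under quantile normalization 8 of those 16 were still higher in all 3 lines, and under each scaling 1 member was lower in all 3. A row low with siControl can pass the 1 TPM filter through siGCDH alone, as MIR34AHG did in SKBR3, which favours rises.

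**Figure D3:**
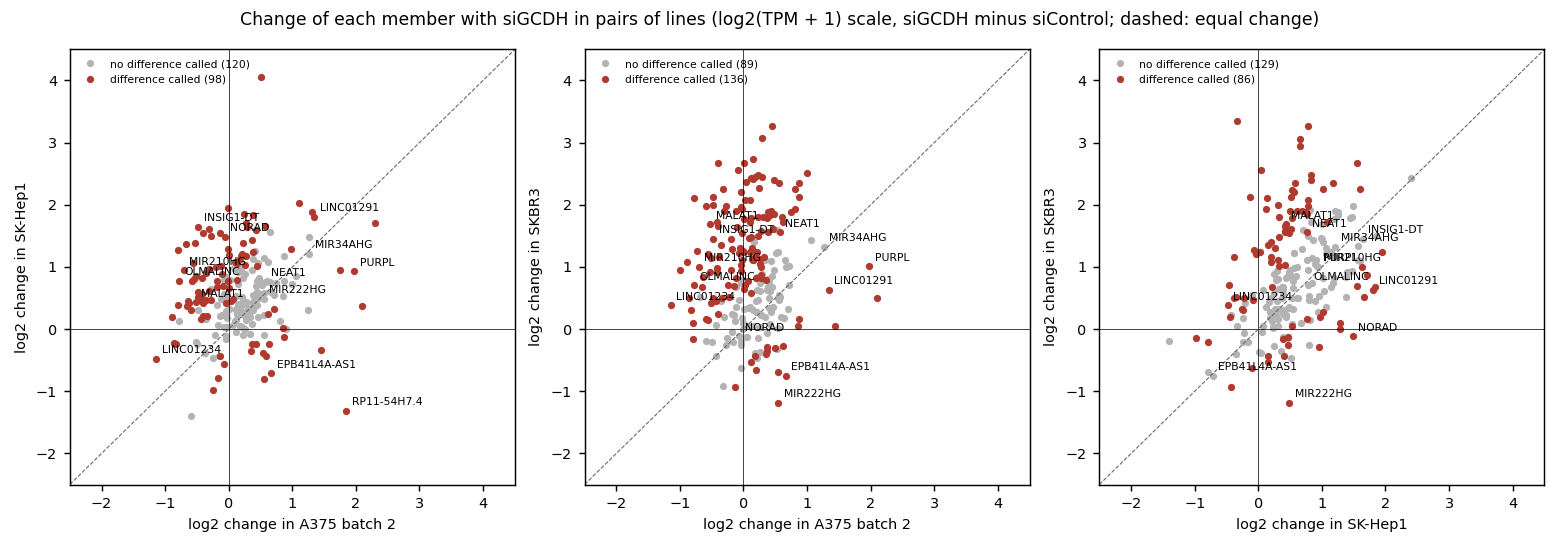
Each point is a member, placed by its log2 change with siGCDH in 2 lines, with the dashed line at equal change and members with a called difference in red. Calls number 98 of 218 between A375 batch 2 and SK-Hep1, 137 of 226 between A375 batch 2 and SKBR3 and 86 of 216 between SK-Hep1 and SKBR3, the 2 members not described by name are left undrawn, and most red points lie on the side of SK-Hep1 in the first panel and of SKBR3 in the other two.

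NEAT1 and MALAT1 are long, abundant nuclear RNAs that lie side by side on chromosome 11. NEAT1 (ENSG00000245532, GRCh38 chromosome 11, 65422774 to 65445540, plus strand, 9249 bp from FRMD8) is the scaffold of paraspeckles, and MALAT1 (ENSG00000251562, chromosome 11, 65497688 to 65506516, plus strand) collects in nuclear speckles, where splicing factors are stored. NEAT1 had 143, 132 and 125 TPM with siControl and 205, 182 and 209 TPM with siGCDH in A375 batch 2 (0.57, SE 0.07, adjusted p = 8.90e-04). In SK-Hep1 it had 589, 545 and 576 TPM with siControl and 937, 947 and 1025 TPM with siGCDH (0.77, SE 0.05, adjusted p = 1.11e-05). In SKBR3 it had 66.6, 62.1 and 76.1 TPM with siControl and 222, 202 and 186 TPM with siGCDH (1.56, SE 0.09, adjusted p = 1.27e-05). Every siGCDH library of these lines lay above every siControl library. In A375 batch 1 the change of NEAT1 was -0.66 and was not called, beside a median of -0.20 over all rows. The rise of batch 2 was thus not seen with the other kit. The rise in SKBR3 was larger than in A375 (difference -0.99, SE 0.12, adjusted p = 4.16e-05) and than in SK-Hep1 (-0.80, SE 0.11, adjusted p = 1.81e-04), while A375 and SK-Hep1 differed by -0.19 (adjusted p = 0.0939). Here and below, the values in brackets are the log2 change on the log2(TPM + 1) scale, its standard error and limma's Benjamini-Hochberg adjusted p over all rows.

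MALAT1 did not move like its neighbour in A375. It had 40.5, 51.7 and 53.5 TPM with siControl and 36.2, 36 and 28.3 TPM with siGCDH in A375 batch 2, a fall without overlap (-0.52, SE 0.13, adjusted p = 0.0203) whose call was lost without siControl replicate 2 (-0.47, adjusted p = 0.0759), without siControl replicate 3 (-0.45, 0.0713) or without siGCDH replicate 3 (-0.41, 0.0628). In SK-Hep1 it rose, with 55.9, 67.1 and 60.5 TPM with siControl and 78, 90.5 and 80.2 TPM with siGCDH (0.43, SE 0.08, adjusted p = 0.00331). In SKBR3 it had 14.3, 20.6 and 16.1 TPM with siControl and 56.6, 56.2 and 55.9 TPM with siGCDH (1.68, SE 0.12, adjusted p = 2.99e-05), the lowest siControl level of the 3 lines. All 3 differences between lines were called, from -0.95 (A375 minus SK-Hep1) to -2.21 (A375 minus SKBR3). Of the coding genes for paraspeckle proteins, 2 rose and 8 fell of 17 in A375, 7 rose and 4 fell of 16 in SK-Hep1, and 7 rose and 4 fell of 17 in SKBR3, beside 19% and 18.2%, 38.7% and 20.6%, and 45.6% and 18% of coding rows.

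**Figure D4:**
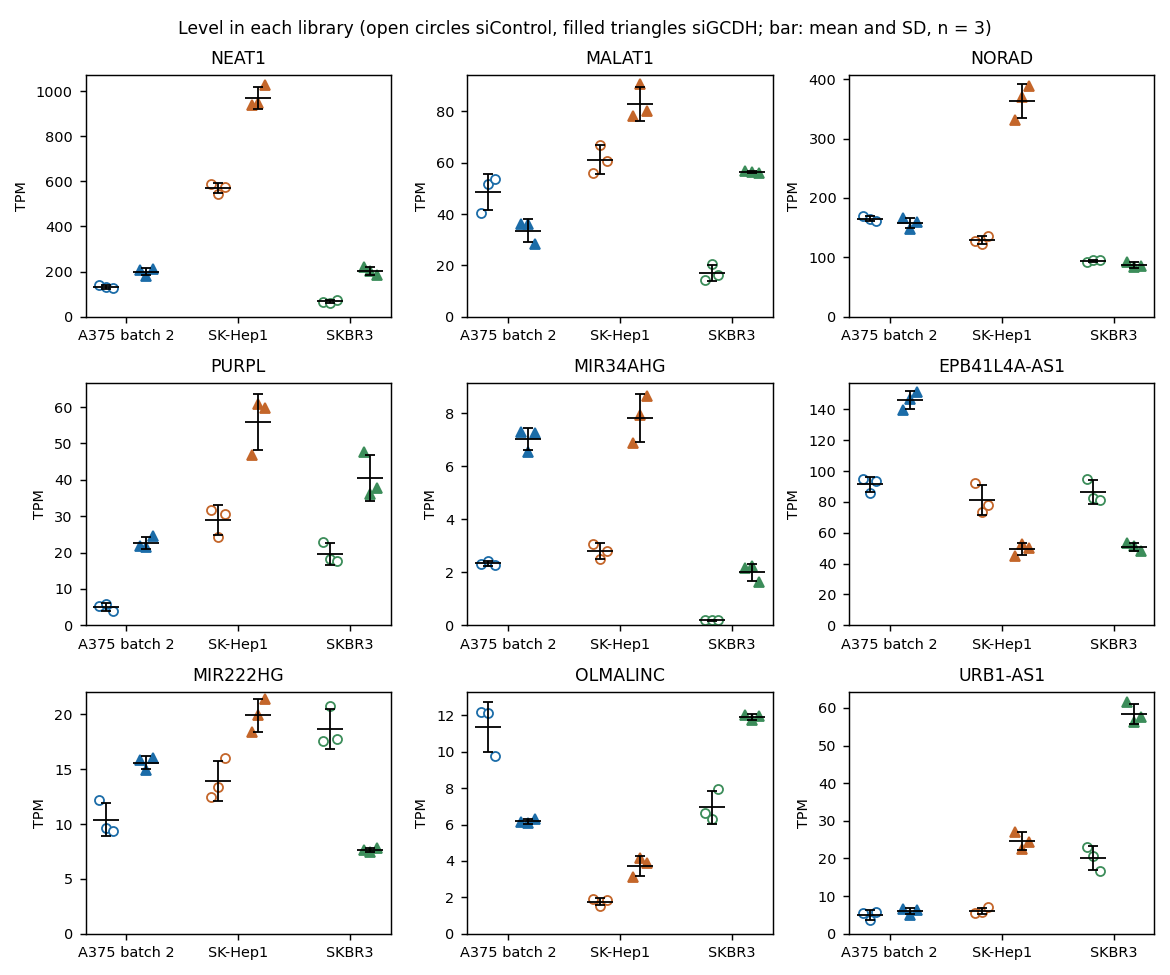
TPM of 9 members in each library of A375 batch 2, SK-Hep1 and SKBR3, with siControl as open circles, siGCDH as filled triangles, and the mean and SD of each group as bars. NEAT1, PURPL and MIR34AHG are higher with siGCDH in all 3 lines, NORAD is higher in SK-Hep1, and EPB41L4A-AS1, MIR222HG and OLMALINC have called changes of opposite sign in different lines.

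Members tied to p53 and DNA damage rose in all called cases. Of 5 such members, 3 rose in A375 batch 2, all 5 in SK-Hep1 and 2 in SKBR3, and none fell, beside 17.9%, 37.3% and 47.3% of all rows called higher. In SKBR3 the count is not above that share and includes MIR34AHG, which passed the filter there only through its siGCDH libraries. PURPL (LINC01021, ENSG00000250337, chromosome 5, 27472292 to 27496401, plus strand), a p53-induced lincRNA that restrains basal p53 levels, had 5.4, 5.88 and 3.85 TPM with siControl and 21.7, 21.5 and 24.5 TPM with siGCDH in A375 batch 2 (1.98, SE 0.14, adjusted p = 8.22e-05). In SK-Hep1 it had 31.8, 24.2 and 30.6 TPM with siControl and 47, 60.9 and 59.8 TPM with siGCDH (0.93, SE 0.13, adjusted p = 6.55e-04), and in SKBR3 23, 18.1 and 17.7 TPM with siControl and 47.7, 36.2 and 37.7 TPM with siGCDH (1.01, SE 0.13, adjusted p = 5.17e-04). No groups overlapped, and the siControl level in A375 was the lowest of the 3 lines. The rise in A375 exceeded that in SK-Hep1 by 1.05 (adjusted p = 0.00123) and that in SKBR3 by 0.96 (adjusted p = 0.00225). In A375 batch 1 PURPL had 0.44, 0.84 and 0.86 TPM with siControl and 5.62, 3.15 and 8.89 TPM with siGCDH (1.93, adjusted p = 0.0299), a call that was lost without any 1 of its siControl libraries or without siGCDH replicate 1 or 3 (adjusted p from 0.087 to 0.108).

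The PURPL promoter is shown because it is the only one of 207 member promoters in which 2 p53 half-sites stand directly side by side. It spans chr5:27472042-27472341 on the plus strand, from 250 bases before to 50 after the RefSeq start (GRCh38.p14), and the capitals mark the adjacent half-sites, at -127 to -108 from the start.
PURPL promoter: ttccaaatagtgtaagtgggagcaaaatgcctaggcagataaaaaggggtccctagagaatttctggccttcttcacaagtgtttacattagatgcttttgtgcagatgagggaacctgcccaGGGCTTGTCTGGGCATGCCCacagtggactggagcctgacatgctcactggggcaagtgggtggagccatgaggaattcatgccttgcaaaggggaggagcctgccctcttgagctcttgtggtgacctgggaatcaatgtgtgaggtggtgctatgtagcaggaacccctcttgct
The consensus half-site was searched on both strands. Adjacent half-sites occurred in 6 of 35116 RefSeq promoters (0.0171%), and a single half-site in 6.63% of them, in 12 of 207 member promoters (5.8%) and in 2 of the 9 promoters found for members higher in all 3 lines. A match is a run of letters and was not tested as a binding site.

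MIR34AHG (ENSG00000228526, chromosome 1, 9148011 to 9198906, minus strand), the host transcript of the p53-induced microRNA miR-34a, was low and rose in each line. It had 2.31, 2.43 and 2.26 TPM with siControl and 7.29, 6.53 and 7.24 TPM with siGCDH in A375 (1.27, SE 0.12, adjusted p = 3.15e-04), 3.08, 2.5 and 2.81 TPM with siControl and 6.86, 7.93 and 8.64 TPM with siGCDH in SK-Hep1 (1.21, SE 0.13, adjusted p = 1.80e-04) and 0.21, 0.18 and 0.18 TPM with siControl and 2.14, 2.22 and 1.63 TPM with siGCDH in SKBR3 (1.33, SE 0.21, adjusted p = 0.00119). The groups did not overlap, and SKBR3 started from the lowest level. There MIR34AHG passed the filter of 1 TPM only through its siGCDH libraries, so a fall could not have been called. The 3 rises could not be ranked, since the differences between A375 and SKBR3 and between SK-Hep1 and SKBR3 turned sign with the pseudocount added to TPM. MIR22HG, the host of miR-22, rose in A375 (0.85, adjusted p = 0.00175) and SK-Hep1 (0.54, adjusted p = 0.0031) and had 1.11, 1.3 and 1.08 TPM with siControl and 1.2, 1.17 and 1.34 TPM with siGCDH in SKBR3, where the groups overlapped and the change of 0.05 did not pass (adjusted p = 0.832) and was -0.66 (adjusted p = 0.02) with quantile normalization. TP53TG1, named as a p53 target, had a change of 0.97 in SK-Hep1 (adjusted p = 0.00413), -0.31 in A375 and 0.19 in SKBR3.

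NORAD (LINC00657, ENSG00000260032, chromosome 20, 36045622 to 36050960, minus strand) is an abundant cytoplasmic RNA that is needed for stable chromosome numbers. It had 128, 123 and 136 TPM with siControl and 332, 370.2 and 389 TPM with siGCDH in SK-Hep1 (1.49, SE 0.07, adjusted p = 2.64e-06). In A375 batch 2 it had 169.6, 165 and 160.4 TPM with siControl and 166, 148 and 160.0 TPM with siGCDH (-0.06, SE 0.05, adjusted p = 0.383), and in SKBR3 91.9, 94.9 and 95.1 TPM with siControl and 92.2, 83.8 and 85.2 TPM with siGCDH (-0.11, SE 0.05, adjusted p = 0.0957). The SK-Hep1 groups stand far apart, and those of the other 2 lines overlap. The change in SK-Hep1 exceeded that in A375 by 1.55 (adjusted p = 7.00e-08) and that in SKBR3 by 1.60 (adjusted p = 3.03e-07). In SKBR3 the small decrease passed under median scaling (-0.35), under quantile normalization (-0.18) and without siGCDH replicate 1 (-0.15).

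By their coordinates, 19 members contain RefSeq microRNAs, 50 mature sequences in all. Of these hosts 6 rose and 1 fell of 19 tested in A375 batch 2, 12 rose and none fell of 17 in SK-Hep1, and 7 rose and 2 fell of 16 in SKBR3. All rows had 17.9% higher and 15.7% lower, 37.3% and 18.2%, and 47.3% and 14.7%, so the hosts in SKBR3 lie near the background. The mature sequences of hosts described here are shown with the seed (bases 2 to 8), which pairs with target messages, in capitals (RefSeq, GRCh38.p14).
miR-34a-5p: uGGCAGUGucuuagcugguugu
miR-22-3p: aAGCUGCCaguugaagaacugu
miR-221-3p: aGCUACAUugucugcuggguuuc
miR-222-3p: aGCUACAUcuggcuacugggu
miR-210-3p: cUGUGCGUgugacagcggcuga
miR-503-5p: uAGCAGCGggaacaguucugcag
Both microRNAs of MIR222HG share the seed GCUACAU, and the others each have a seed of their own. The libraries measure the host transcripts and not the mature microRNAs.

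MIR222HG (ENSG00000270069, chromosome X, 45745211 to 45770274, minus strand) changed in opposite directions. It had 12.2, 9.67 and 9.41 TPM with siControl and 15.9, 14.9 and 16 TPM with siGCDH in A375 (0.55, SE 0.11, adjusted p = 0.00803). SK-Hep1 had 12.5, 13.4 and 16 TPM with siControl and 18.4, 19.9 and 21.4 TPM with siGCDH (0.49, SE 0.11, adjusted p = 0.00595). In SKBR3 the values were 17.6, 20.8 and 17.7 TPM with siControl and 7.63, 7.49 and 7.8 TPM with siGCDH (-1.19, SE 0.09, adjusted p = 4.21e-05). The groups did not overlap in any line, with siGCDH above siControl in the first 2 lines and below it in SKBR3. In A375 batch 1 the change of MIR222HG was -0.14 and was not called, beside a median of -0.20 over all rows. The difference from SKBR3 was 1.73 for A375 (adjusted p = 1.55e-06) and 1.67 for SK-Hep1 (adjusted p = 6.29e-06).

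MIR210HG, the host of the hypoxia-induced miR-210, rose from 18.4, 12.5 and 10.7 TPM to 30.2, 26.3 and 24.6 TPM in SK-Hep1 (0.95, adjusted p = 0.00296) and from 4.2, 2.68 and 5.78 TPM to 7.77, 10.6 and 9.3 TPM in SKBR3 (1.00, adjusted p = 0.00639, not passing with quantile normalization). In A375 it had 2.83, 2.18 and 1.83 TPM with siControl and 0.91, 1.27 and 0.83 TPM with siGCDH (-0.71, adjusted p = 0.0374), a fall whose call was lost without siControl replicate 1 (-0.59, adjusted p = 0.0943) or 2 (-0.72, 0.0783) or siGCDH replicate 1 (-0.68, 0.0802) or 3 (-0.64, 0.0868). MIR503HG, the host of miR-503, fell in SKBR3 from 16.5, 14.4 and 14 TPM to 8.76, 8.08 and 11.3 TPM (-0.63, adjusted p = 0.00426) and had 122, 137 and 123 TPM with siControl and 128, 117 and 111 TPM with siGCDH in SK-Hep1, its highest level (-0.10, adjusted p = 0.254). MIR4458HG rose by 1.02 in SK-Hep1 and 0.82 in SKBR3 (adjusted p = 1.01e-04 and 4.93e-04) and had a change of -0.12 in A375 (adjusted p = 0.733).

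Among lincRNAs named in stress or NRF2 contexts, 2 rose and 2 fell of 6 in A375 batch 2, 4 rose and 1 fell of 6 in SK-Hep1, and none of 4 was called in SKBR3, beside 17.9%, 37.3% and 47.3% of all rows called higher and 15.7%, 18.2% and 14.7% called lower in these lines. LINC00973 (ENSG00000240476, chromosome 3, 98981058 to 98983096, plus strand) had the largest rise among members in A375, with 8.52, 6.21 and 9.84 TPM with siControl and 37.8, 48.8 and 45.5 TPM with siGCDH (2.31, SE 0.16, adjusted p = 7.37e-05). In SK-Hep1 it had 3.18, 3.13 and 3.09 TPM with siControl and 13.3, 11.2 and 12.9 TPM with siGCDH (1.70, SE 0.11, adjusted p = 1.31e-05), and in SKBR3 it stayed at or below 0.13 TPM. In batch 1 the values were 1.76, 3.03 and 2.97 TPM with siControl and 10.9, 11.6 and 12.9 TPM with siGCDH (1.85, SE 0.25, adjusted p = 0.00847), a call that held when any 1 library was left out. LINC01234 fell from 18.1, 21.2 and 19.1 TPM to 9.69, 7.58 and 7.67 TPM in A375 (-1.14, SE 0.12, adjusted p = 3.80e-04) and from 13.2, 15.8 and 16.1 TPM to 9.83, 10.9 and 10.8 TPM in SK-Hep1 (-0.48, SE 0.10, adjusted p = 0.00531), with no overlap in either line. In SKBR3 it had 4.93, 4.8 and 4.3 TPM with siControl and 8.05, 6.03 and 5.42 TPM with siGCDH (0.39, adjusted p = 0.0562), and it passed there without siGCDH replicate 3 (0.49, adjusted p = 0.0374) and in the joint fit of the 18 libraries (0.39, 0.014). LINC01116 fell by 0.86 on the log2 scale in A375 (adjusted p = 0.0012), and its change in A375 lay below that in SK-Hep1 (difference -0.63, adjusted p = 0.00215) and SKBR3 (-1.37, adjusted p = 4.56e-04). CYTOR (LINC00152), named for its effect on the cytoskeleton, rose from 172, 174 and 163 TPM to 250.3, 223 and 228 TPM in SK-Hep1 (0.46, SE 0.06, adjusted p = 3.02e-04) and had changes of 0.03 in A375 and -0.12 in SKBR3 (adjusted p = 0.82 and 0.477), the latter a called fall of -0.66 with quantile normalization (adjusted p = 0.00958).

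Members known from work on many cancers had 5 rises and no fall of 6 in A375 batch 2, 2 rises and 2 falls of 5 in SK-Hep1, and 3 rises and 1 fall of 6 in SKBR3. The rises in SK-Hep1 and SKBR3 lie near the 37.3% and 47.3% of all rows called higher, and in A375 that share was 17.9%. The A375 call of LINC00662 was lost without siControl replicate 1 or 3 or any 1 siGCDH replicate (adjusted p from 0.0592 to 0.0966). That of PVT1 was lost without siControl replicate 1 or 2 or siGCDH replicate 2 (0.0618 to 0.0959). In A375 batch 1 none of the 6 was called, with a median of -0.03 beside -0.20 over all rows. EPB41L4A-AS1 (ENSG00000224032, chromosome 5, 112160526 to 112164276, plus strand), which hosts a small nucleolar RNA, was the 1 member that rose in A375 and fell in both other lines. It had 94.9, 86.1 and 93.5 TPM with siControl and 140.0, 147 and 151 TPM with siGCDH in A375 (0.67, SE 0.05, adjusted p = 1.38e-04). In SK-Hep1 it had 92.5, 73.7 and 78.1 TPM with siControl and 44.8, 52.4 and 50.3 TPM with siGCDH (-0.71, SE 0.10, adjusted p = 5.28e-04), and in SKBR3 95.1, 82.3 and 81.5 TPM with siControl and 53.3, 51.1 and 48.1 TPM with siGCDH (-0.75, SE 0.07, adjusted p = 1.27e-04). The siControl levels of the 3 lines overlap, and the siGCDH levels of A375 lie above all others. The differences from A375 were 1.38 for SK-Hep1 and 1.42 for SKBR3 (adjusted p = 1.79e-06 and 3.03e-07). In batch 1 it had 388, 364 and 377 TPM with siControl and 344, 327 and 386 TPM with siGCDH (-0.10, adjusted p = 0.563). This lay above the median of -0.20 over all rows of that batch, and no rise was called with the other kit.

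LINC00511 rose from 52.4, 46.8 and 48 TPM to 79.1, 70.7 and 78.2 TPM in A375 (0.62, SE 0.07, adjusted p = 5.54e-04). Its changes of 0.25 in SK-Hep1 and -0.27 in SKBR3 did not pass (adjusted p = 0.0876 and 0.325), and the former passed without siGCDH replicate 1 (0.32, adjusted p = 0.0455) and the latter with quantile normalization (-0.96, adjusted p = 0.0121). LINC00467 rose from 6.87, 8.91 and 5.79 TPM to 26.8, 23.3 and 22.5 TPM in SK-Hep1 (1.64, SE 0.15, adjusted p = 6.39e-05) and from 6.15, 7.4 and 6.7 TPM to 13.2, 14.3 and 15.8 TPM in SKBR3 (0.99, SE 0.11, adjusted p = 1.83e-04), and its change in A375 was 0.28 (adjusted p = 0.0978). SMIM30 (LINC00998), a lincRNA row now annotated for a small membrane protein, went the other way. It fell from 136, 153 and 140.0 TPM to 77.5, 77.7 and 69 TPM in SKBR3 (-0.93, SE 0.07, adjusted p = 2.99e-05) and from 78.5, 79.3 and 93.3 TPM to 64.1, 58.9 and 61.4 TPM in SK-Hep1 (-0.44, SE 0.08, adjusted p = 0.00208), and its change in A375 was -0.13 (adjusted p = 0.134). It was one of 4 members called lower in 2 lines, with EPB41L4A-AS1, LINC01234 and EBLN3, the last chosen after its values were seen.

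Several of the largest changes in A375 and SK-Hep1 were in members listed at or near 0 in SKBR3. LINC03061 (RP11-54H7.4, ENSG00000275216, chromosome 13, 109269634 to 109278512, plus strand) rose from 5.46, 5.87 and 5.54 TPM to 22.9, 22.7 and 23 TPM in A375 (1.85, SE 0.08, adjusted p = 1.04e-05) and fell from 18.1, 19.1 and 19.5 TPM to 6.75, 6.61 and 7.67 TPM in SK-Hep1 (-1.31, SE 0.09, adjusted p = 1.88e-05). Its difference between these lines, 3.16 (SE 0.11, adjusted p = 1.29e-09), was the largest called in favour of A375. RP5-1028K7.2 (ENSG00000266088, chromosome 17, 40517026 to 40527002, plus strand, 15429 bp from TNS4) rose from 1.47, 0.67 and 1.22 TPM to 35.5, 32 and 34.1 TPM in SK-Hep1 (4.06, SE 0.15, adjusted p = 1.28e-06). In A375 it had 1.51, 2.22 and 1.48 TPM with siControl and 2.68, 3.32 and 2.63 TPM with siGCDH (0.51, adjusted p = 0.0735, but 0.0368 without the trend and 0.0101 in the joint fit of the 18 libraries), and the difference of -3.55 was the largest called in favour of SK-Hep1. Both members are listed at 0 to 0.03 TPM in SKBR3. LINC00707 rose from 5.72, 5.35 and 5.7 TPM to 22.2, 20.2 and 21.1 TPM in A375 (1.75, SE 0.09, adjusted p = 1.76e-05) and from 65.2, 64 and 72 TPM to 122, 134 and 138 TPM in SK-Hep1 (0.96, SE 0.07, adjusted p = 2.25e-05). LASTR (RP13-463N16.6), which binds the splicing factor SART3, rose from 5.47, 6.3 and 5.49 TPM to 11.7, 16.1 and 13.2 TPM in A375 (1.11, SE 0.13, adjusted p = 7.88e-04) and from 4.15, 3.04 and 2.2 TPM to 14.4, 18.5 and 14.4 TPM in SK-Hep1 (2.04, SE 0.19, adjusted p = 7.59e-05). LINC01060 was measured in A375 alone at more than 0.17 TPM and rose from 21.2, 23.1 and 24.2 TPM to 68.2, 65.2 and 61.3 TPM (1.47, SE 0.07, adjusted p = 1.76e-05).

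LINC01291 and LINC01293 lie in sequence on the plus strand of chromosome 2 (74918148 to 74938418 and 74940258 to 74942670), with POLE4 as the nearest coding gene of both. LINC01293 rose from 16.7, 16 and 16 TPM to 40.5, 42.2 and 42.3 TPM in A375 (1.31, SE 0.06, adjusted p = 1.5e-05) and from 26.4, 27.9 and 32.7 TPM to 105, 109 and 114 TPM in SK-Hep1 (1.88, SE 0.08, adjusted p = 2.62e-06). LINC01291 rose from 26.1, 24.1 and 30 TPM to 73, 66.9 and 67.9 TPM (1.35, SE 0.09, adjusted p = 4.87e-05) and from 44.2, 45.6 and 51.8 TPM to 149, 178 and 178 TPM (1.81, SE 0.09, adjusted p = 4.14e-06) in the same lines. Reads of adjacent transcripts may be shared between these rows, which was not tested. In SKBR3 LINC01291 had 1.04, 1.62 and 0.84 TPM with siControl and 2.1, 2.33 and 2.56 TPM with siGCDH (0.63, adjusted p = 0.0263), a call lost under both scalings and without siControl replicate 1 (0.60, adjusted p = 0.0686) or 3 (0.52, 0.0686) or siGCDH replicate 2 (0.63, 0.058) or 3 (0.58, 0.064).

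Some members changed in a single line. EIF3J-DT (EIF3J-AS1, chromosome 15, 44527257 to 44536923, minus strand), which starts 134 bp from the translation factor gene EIF3J, rose from 6.87, 6.09 and 7.72 TPM to 17.3, 23.5 and 14.6 TPM in SK-Hep1 (1.28, SE 0.17, adjusted p = 4.59e-04). In A375 it had 15.7, 15.6 and 12.3 TPM with siControl and 13.9, 13.6 and 15.9 TPM with siGCDH (-0.00, adjusted p = 0.987), and in SKBR3 16.1, 17.5 and 14.4 TPM with siControl and 15.6, 14.9 and 17.2 TPM with siGCDH (-0.00, adjusted p = 0.98), with overlapping groups in both. The SK-Hep1 change differed from that of A375 by 1.29 (adjusted p = 4.44e-04) and from that of SKBR3 by 1.29 (adjusted p = 6.08e-04), and in SKBR3 quantile normalization gave a called fall of -0.31. DUBR, which was first described beside the DPPA2 gene, fell from 19.1, 19.5 and 19.4 TPM to 8.99, 10.2 and 8.86 TPM in SK-Hep1 (-0.98, SE 0.08, adjusted p = 5.72e-05), its highest line. Its changes of -0.25 in A375 and -0.14 in SKBR3 did not pass (adjusted p = 0.238 and 0.396), and in SKBR3 it was -0.66 with quantile normalization (adjusted p = 0.00832). LINC02381 (RP11-834C11.4) fell from 31.9, 30.3 and 29.7 TPM to 17.4, 19.8 and 20.2 TPM in SKBR3 (-0.65, SE 0.08, adjusted p = 2.89e-04) and had 14.9, 14.8 and 12.8 TPM with siControl and 16, 15.7 and 17.7 TPM with siGCDH in A375 (0.20, adjusted p = 0.132), a difference of 0.86 (adjusted p = 8.66e-05). MIR4453HG (DKFZP434I0714, chromosome 4, 152536264 to 152539263, plus strand), 201 bp from the start of the ubiquitin ligase gene FBXW7, rose from 4.93, 5.46 and 5.12 TPM to 36.3, 36 and 33.4 TPM in SKBR3 (2.55, SE 0.08, adjusted p = 1.22e-06). It had 1.68, 1.8 and 1.64 TPM with siControl and 1.59, 1.26 and 1.87 TPM with siGCDH in A375 (-0.08, adjusted p = 0.783) and 0.84, 1.34 and 1.29 TPM with siControl and 1.21, 1.32 and 1.07 TPM with siGCDH in SK-Hep1 (0.04, adjusted p = 0.898), and both differences from SKBR3 were called (-2.63, adjusted p = 1.37e-07 and -2.52, adjusted p = 1.13e-06). FBXW7 rose by 0.41 in SK-Hep1 (adjusted p = 0.0309) and by 0.39 in SKBR3 (0.0268).

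Opposite calls in different lines were found for 18 of the 186 members tested in all 3 (9.68%, beside 16.8% of all rows tested in all 3), of which 15 stayed opposite under median scaling and 13 under quantile normalization. In 7 of them A375 fell while SK-Hep1 and SKBR3 rose, among them MALAT1 and MIR210HG, given above. How many of all rows had this pattern was not counted. With a library left out, the A375 calls of MALAT1, MIR210HG, INSIG1-DT (AC144652.1) and ZNF883 were lost in several or all refits. For ZNF883 these refits gave -0.555 to -0.618 (adjusted p from 0.0517 to 0.0688). Its SK-Hep1 call was also lost in such refits (0.315 to 0.481, adjusted p from 0.0785 to 0.121), under median scaling and under quantile normalization. OLMALINC (ENSG00000235823, chromosome 10, 100373513 to 100454043, plus strand) lies 8679 bp from SCD, the gene of stearoyl-CoA desaturase. It had 12.2, 12.1 and 9.76 TPM with siControl and 6.15, 6.07 and 6.31 TPM with siGCDH in A375 (-0.78, SE 0.11, adjusted p = 0.00193). SK-Hep1 had 1.89, 1.53 and 1.85 TPM with siControl and 3.12, 4.19 and 3.89 TPM with siGCDH (0.78, SE 0.16, adjusted p = 0.00489), and SKBR3 6.61, 6.28 and 7.97 TPM with siControl and 12, 11.8 and 11.9 TPM with siGCDH (0.70, SE 0.10, adjusted p = 8.84e-04). The groups did not overlap, and A375, the highest of the lines with siControl, was below SKBR3 with siGCDH. The change in A375 lay -1.55 from that in SK-Hep1 and -1.48 from that in SKBR3 (adjusted p = 2.46e-05 and 8.30e-06). With quantile normalization the SKBR3 rise just missed the threshold (0.28, adjusted p = 0.0505).

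INSIG1-DT (AC144652.1, ENSG00000273117, chromosome 7, 155295918 to 155297541, minus strand) starts 235 bp from INSIG1, which encodes a sterol sensor of the endoplasmic reticulum. It rose from 1.43, 1.39 and 1.4 TPM to 6.05, 6.99 and 6.59 TPM in SK-Hep1 (1.65, SE 0.13, adjusted p = 4.17e-05) and from 3.59, 3.55 and 3.49 TPM to 12.1, 10.6 and 11.7 TPM in SKBR3 (1.45, SE 0.10, adjusted p = 2.58e-05). In A375 it had 3.41, 3.63 and 3.76 TPM with siControl and 2.39, 2.44 and 2.1 TPM with siGCDH (-0.48, SE 0.14, adjusted p = 0.0386), with no overlap, but that call was lost when any 1 of the 6 libraries was left out (-0.43 to -0.51, adjusted p from 0.0555 to 0.0949). INSIG1 itself changed by 0.21 in A375 (adjusted p = 0.0382), -0.10 in SK-Hep1 (0.117) and -0.50 in SKBR3 (9.07e-05), so that the pair went in different directions in SKBR3.

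Members that start next to a coding gene were set beside other members, as counts without a test between the classes. In SKBR3 86 of 100 divergent members were higher and 1 lower (median 1.43), and 109 of 174 other annotated members were higher and 9 lower (0.68). In SK-Hep1 52 of 83 divergent members were higher and none lower (0.69), and 86 of 177 others were higher and 14 lower (0.43). In A375 batch 2 the divergent members had 8 of 84 higher and 6 lower (0.13), and the others 48 of 188 and 17 (0.20). All rows had 47.3% higher and 14.7% lower in SKBR3, 37.3% and 18.2% in SK-Hep1, and 17.9% and 15.7% in A375. The rises of divergent members in A375 (9.52%) lay below that share. Divergent members had a lower siControl level, with a median of 4.64 TPM against 6.17 in SKBR3, and its part in these counts was not tested. In members with at least 3 TPM in the other 2 lines, the SKBR3 medians were 0.94 (48 divergent) and 0.50 (115 others). Of the tested members that were both divergent and of a single exon, 36 of 37 were higher in SKBR3, 15 of 24 in SK-Hep1 and 1 of 29 in A375. With 3 TPM asked in the other 2 lines, 11 of these 38 members were left, and 9 of the 10 tested were higher in SKBR3 (median 1.45 in place of 1.91).

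The coding partners of the divergent members were also measured. Over 99 divergent pairs in SKBR3 the median change was 1.45 for the member and 0.24 for its partner, with the member above its partner in 91 pairs. Over 81 pairs in SK-Hep1 it was 0.69 and 0.17 (67 pairs), and over 82 pairs in A375 0.14 and 0.14 (48 pairs). The members were chosen by levels that include the siGCDH libraries and the partners were not. With members of at least 3 TPM in the other 2 lines, 48 pairs in SKBR3 had medians of 0.94 and 0.31, with the member above in 43, and the values were 0.66 and 0.14 over 77 pairs in SK-Hep1 (64) and 0.14 and 0.14 over 79 in A375 (47). Of the partners 51 rose and 18 fell in SKBR3, 32 and 14 in SK-Hep1, and 20 and 12 in A375. Coding rows as a whole had 45.6% higher and 18% lower, 38.7% and 20.6%, and 19% and 18.2% in the same order. Across pairs, the changes of member and partner had a Spearman's rho of -0.03 in SKBR3, 0.11 in SK-Hep1 and 0.18 in A375, as descriptions over pairs that share their libraries.

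**Figure D5:**
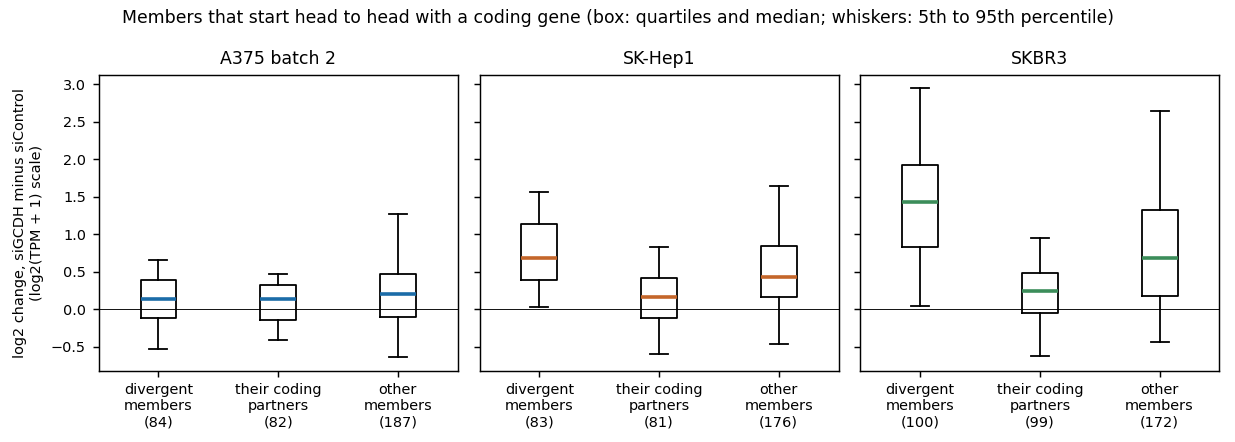
Log2 change with siGCDH in A375 batch 2, SK-Hep1 and SKBR3 for divergent members, their coding partners and other members (without the 2 members not described by name), with boxes from the first to the third quartile, a line at the median and whiskers from the 5th to the 95th percentile. In SKBR3 the divergent members have a median of 1.43, their partners 0.24 and other members 0.68.

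URB1-AS1 (ENSG00000256073, chromosome 21, 32393130 to 32393960, plus strand) starts 104 bp from URB1, a ribosome assembly gene. It had 5.52, 5.68 and 7.1 TPM with siControl and 27.1, 22.5 and 24.4 TPM with siGCDH in SK-Hep1 (1.86, SE 0.12, adjusted p = 1.19e-05). In SKBR3 it had 23.1, 20.7 and 16.8 TPM with siControl and 61.4, 56.3 and 57.5 TPM with siGCDH (1.5, SE 0.11, adjusted p = 3.47e-05), and in A375 5.5, 3.56 and 5.85 TPM with siControl and 6.48, 5 and 6.37 TPM with siGCDH (0.23, SE 0.19, adjusted p = 0.374). The first 2 lines show no overlap, and in A375 the groups overlap. URB1 changed by -0.09, -0.14 and 0.07 in A375, SK-Hep1 and SKBR3 (adjusted p = 0.531, 0.25 and 0.434). EMSY-DT (RP11-111M22.3) rose from 2.11, 2.41 and 3.49 TPM to 14.5, 13.2 and 11.2 TPM in SK-Hep1 (1.94, SE 0.17, adjusted p = 5.48e-05) and from 26.7, 32.2 and 33.5 TPM to 75.3, 77.2 and 69.6 TPM in SKBR3 (1.24, SE 0.09, adjusted p = 3.35e-05), and had a change of -0.01 in A375 (adjusted p = 0.979). Its partner EMSY, a gene of a chromatin regulator 267 bp away, rose by 0.80 (adjusted p = 2.58e-04) and 0.56 (0.00194) in SK-Hep1 and SKBR3. BTF3-DT (RP11-79P5.9, chromosome 5, 73497550 to 73498293, minus strand) rose from 3.92, 3.71 and 3.57 TPM to 29.9, 29.3 and 28.5 TPM in SKBR3 (2.68, SE 0.08, adjusted p = 1.02e-06), had 2.26, 3.11 and 2.84 TPM with siControl and 3.56, 2.66 and 2.14 TPM with siGCDH in A375, and was under 2 TPM in SK-Hep1. BTF3, a nascent chain binding factor gene 115 bp away, fell by 0.19 in SKBR3 (adjusted p = 0.00399).

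The promoter between URB1-AS1 and URB1 is shown as an example of the GC-rich start sites that divergent members have. It spans chr21:32392883-32393182 on the plus strand (RefSeq, GRCh38.p14), and the 28 CG dinucleotides are in capitals.
URB1-AS1 promoter: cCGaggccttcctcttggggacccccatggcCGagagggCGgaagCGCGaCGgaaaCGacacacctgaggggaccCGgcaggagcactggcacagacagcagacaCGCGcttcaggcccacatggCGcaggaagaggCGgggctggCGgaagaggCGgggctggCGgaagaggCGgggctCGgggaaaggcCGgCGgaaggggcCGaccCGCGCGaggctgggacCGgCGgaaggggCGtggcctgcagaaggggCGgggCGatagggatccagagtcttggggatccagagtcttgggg
The 74 promoters found for divergent members had a median of 32 CG dinucleotides and 70.5% G and C, the 126 promoters of other annotated members 14 and 57.7%, and all 35116 RefSeq promoters of the same length 14 and 58.7%.

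Coding genes of RNA turnover were counted beside the members. Of 21 nuclear exosome and adaptor genes 4 rose and 4 fell in A375 batch 2, 6 and 3 in SK-Hep1, and 6 and 5 in SKBR3, with median changes of 0.08, 0.15 and 0.02. Of 15 genes of nonsense-mediated decay 5 rose and 1 fell, 5 and 4, and 8 and 4 (medians 0.09, -0.02 and 0.19). Of 16 m6A writers, erasers and readers 4 rose and 5 fell, 6 and 5, and 9 and 3 (medians -0.03, 0.03 and 0.22). Coding rows as a whole had 19% higher and 18.2% lower, 38.7% and 20.6%, and 45.6% and 18%, with medians of 0.01, 0.16 and 0.23.

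A375 batch 1, which the rule did not use, was made with the other kit. There 8 of 225 tested members were called higher and 3 lower (3.56% and 1.33%), beside 1.18% and 6.73% of all rows, and the median change was -0.11 beside -0.20. Replicate libraries of a group had correlations of 0.906 to 0.925 in this batch and 0.968 to 0.979 in the other libraries. A missing call there is not read as no change. With median scaling, quantile normalization, or the ribosomal rows removed, the calls were 8 higher and none lower and the median lay between 0.04 and 0.10. Over 214 members the changes in the 2 A375 batches had a Spearman's rho of 0.49 (0.47 over all rows). Of 53 members called higher in batch 2 and tested in batch 1, 35 lay above 0 there and 5 were called, and of 17 called lower 15 lay below 0. Over all 214 members, 93 lay above 0.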

How the data were processed

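RNA was measured in 24 libraries, 8 groups of 3, whose groups and replicate numbers come from the labels. Each library is a column of the deposited table, in TPM as computed by the authors. The submitters' processing notes name hg38, RSEM 1.3.1, STAR 2.7.0d and cutadapt 2.3, and for the annotation and the strand setting nothing is given in the sources used here. RSEM divides shared reads by estimate, so near-identical copies, overlapping genes and antisense partners are uncertain; 12 members are copies on the short arm of chromosome 21. Depth is unknown, so no counting interval is given.

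Values were transformed to log2(TPM + 1). Rows with a mean of at least 1 TPM over the libraries of a fit (in both lines, for a difference) were fitted with limma 3.58.1 (lmFit, eBayes with trend) in R 4.3.3, each line or batch on its 6 libraries and each difference on 12 as an interaction. Benjamini-Hochberg adjustment of the two-sided p-values ran over all rows, and rows under 0.05 were called. Fold changes on this scale understate those of low rows. Counts and sequences were handled in Python 3.11.15, with GENCODE 29 and RefSeq (GRCh38.p14) matched by gene identifier or symbol: 347 members had an entry and 168 a promoter. The fits were tested on simulated data.

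Members were named if among the 10 highest, the 6 largest called rises or falls of a line (at least 5 TPM in the higher group, no overlap), the 5 largest called differences in each direction, or measured on role lists (nuclear body, p53-linked, stress or NRF2-linked, microRNA host, X inactivation centre, cancer-linked, imprinted and melanoma-linked lincRNAs). The imprinted and melanoma-linked lists had no member, and of the X inactivation centre list 1 of 2 rose in each line. Members and lists were chosen with earlier results of these data known, so they give no independent support. Alternatives were other pseudocounts (0.1 and 5), filters, scalings, eBayes settings, a joint fit, the replicate number as a block and leaving out each library; removal of ribosomal rows or chromosome 21 copies and choosing the members by other libraries (for counts by position and divergent pairs too) were added after seeing the data. One result is not reported here.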

Additional observations from a re-analysis of the deposited data

Results flagged for a closer look

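The knockdown effect differed between 2 lines, by a test of the difference itself (limma, adjusted over all rows), for 98 members between A375 batch 2 and SK-Hep1, for 137 between A375 batch 2 and SKBR3 and for 86 between SK-Hep1 and SKBR3. These are 45%, 60.6% and 39.8% of the members tested, beside 50.1%, 53% and 37.1% of all rows. The 5 largest called differences in each direction are given here as values, in log2 units, first line minus second.

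Between A375 batch 2 and SK-Hep1 the effect was higher in A375 for LINC03061 (RP11-54H7.4, 3.16), MIR3179-3 (1.78), RP11-38L15.2 (1.74), EPB41L4A-AS1 (1.38) and AP001505.10 (1.35). It was higher in SK-Hep1 for RP5-1028K7.2 (-3.55), INSIG1-DT (AC144652.1, -2.12), RP11-488L18.10 (-2.08), RP5-1198O20.4 (-2.05) and LINC01023 (-1.95). RP11-488L18.10 had 5.16, 3.45 and 3.46 TPM with siControl and 1.58, 1.71 and 2.34 TPM with siGCDH in A375 and 3.04, 2.48 and 3.42 TPM with siControl and 8.38, 8.11 and 9.41 TPM with siGCDH in SK-Hep1. MIR3179-3 is a lincRNA row named after a microRNA with near-identical copies on chromosome 16. It had 3.93, 3.24 and 0.1 TPM with siControl and 1.18, 1.65 and 0.99 TPM with siGCDH in SK-Hep1. Its call was lost when any of 7 libraries was left out: A375 siControl 1, siGCDH 1 and siGCDH 3, and SK-Hep1 siControl 1, siControl 2, siGCDH 1 and siGCDH 3 (1.38 to 1.78, adjusted p from 0.053 to 0.0754). It was also lost with no filter (0.0868). With a pseudocount of 0.1 the calls of MIR3179-3 (0.246) and RP11-38L15.2 (0.102) were lost.

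Between A375 batch 2 and SKBR3 the effect was higher in A375 for MIR222HG (1.73), RP11-38L15.2 (1.6), EPB41L4A-AS1 (1.42), MIR3179-3 (1.39) and AP001505.10 (1.23). It was higher in SKBR3 for LINC01023 (-3.08), RP11-589P10.5 (-2.89), ENSG00000274213 (-2.82), GSK3B-DT (RP11-18H7.1, -2.78) and BTF3-DT (RP11-79P5.9, -2.67). LINC01023, a single-exon transcript, had 4.23, 4.48 and 6.96 TPM with siControl and 33.2, 38.1 and 43.7 TPM with siGCDH in SKBR3 and 3.84, 0.68 and 4.9 TPM with siControl and 1.47, 2.46 and 1.44 TPM with siGCDH in A375. The call of RP11-38L15.2 was lost when any of 7 libraries was left out: A375 siControl 2, siControl 3 and siGCDH 1, and SKBR3 siControl 2, siControl 3, siGCDH 1 and siGCDH 3 (1.28 to 1.57, adjusted p from 0.0633 to 0.088), and also with no filter (0.0836) or a pseudocount of 0.1 (0.0969). That of MIR3179-3 was lost in the joint fit of the 18 libraries (0.0697).

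Between SK-Hep1 and SKBR3 the effect was higher in SK-Hep1 for MIR222HG (1.67), NORAD (LINC00657, 1.6), EIF3J-DT (EIF3J-AS1, 1.29), AC007383.3 (1.23) and RP11-488L18.10 (1.18). It was higher in SKBR3 for CTD-2095E4.5 (-3.68), MIR4453HG (DKFZP434I0714, -2.52), ENSG00000274213 (-2.49), RP11-430G17.3 (-2.39) and RP11-385F7.1 (-2.29). CTD-2095E4.5 had 1.11, 0.96 and 0.48 TPM with siControl and 21.4, 17.1 and 14.7 TPM with siGCDH in SKBR3 and 1.25, 1.45 and 1.46 TPM with siControl and 1.26, 0.56 and 0.89 TPM with siGCDH in SK-Hep1. In SKBR3 CTD-2095E4.5 passed the filter of 1 TPM only through its siGCDH libraries. ENSG00000274213, 106 bp from the start of TRIM25, had 1.6, 2.37 and 0 TPM with siControl and 15.5, 17.5 and 24.6 TPM with siGCDH in SKBR3 and 0.45, 2.77 and 1.26 TPM with siControl and 4.84, 2.43 and 2.12 TPM with siGCDH in SK-Hep1. Among those higher in SKBR3, ENSG00000274213, RP11-430G17.3, RP11-385F7.1 and MIR4453HG start head to head with a coding gene. With a pseudocount of 0.1 the calls of ENSG00000274213 (adjusted p = 0.0764) and RP11-430G17.3 (0.173) were lost in this comparison.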

How the results depend on the processing

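The number of called members moved by more than 1.5 times in these cases. In SKBR3 it was 121 with members chosen by the 9 siControl libraries and 116 with members chosen by the other 2 lines, in place of 212. In A375 batch 1 it was 3 without the trend, 7 with a filter at 5 TPM, 6 with no filter and 5 with the replicate block, in place of 11. Leaving out any 1 of its 6 libraries gave 3 to 7 (siControl replicate 1 left out 7, replicate 2 left out 3, replicate 3 left out 4, and siGCDH replicate 1 left out 3, replicate 2 or 3 left out 4). A filter at 5 TPM, which tests fewer members, gave 48, 50 and 34 called differences in place of 98, 137 and 86 (A375 against SK-Hep1, A375 against SKBR3, SK-Hep1 against SKBR3). The last count was 159 when 1 TPM was asked over the 12 libraries together and 147 with no filter. Over all single libraries left out, the counts were 55 to 66 in A375 batch 2 (80 with all), 131 to 142 in SK-Hep1 (156), 196 to 208 in SKBR3 (212), and 84 to 94, 130 to 139 and 80 to 87 for the differences. The other 85 counts from these alternatives stayed within 1.5 times, and so did 54 with a library left out, while 6 moved. GCDH kept its direction and its side of the threshold in 38 refits and in 24 with a library left out.

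Changes that turned sign were MIR22HG in SKBR3 with quantile normalization (-0.66), LINC01291 in SKBR3 with quantile normalization (-0.047), JPX in SKBR3 with median scaling (-0.007), and MIR34AHG in A375 minus SKBR3 (0.282) and in SK-Hep1 minus SKBR3 (0.285) with a pseudocount of 5; the cause was not tested. Of the other results for named members, 3603 kept direction and call, 108 lost the call and 61 gained it, and with a library left out 2995, 170 and 33.

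Same-numbered siControl and siGCDH libraries did not deviate together (correlations of -0.063 to 0.139), so the numbers were not treated as pairs. With the replicate block the calls were 72, 148 and 211 in A375 batch 2, SK-Hep1 and SKBR3, 5 in A375 batch 1, and 92, 139 and 85 for the differences, and 11 members were higher in all 3 lines, 10 of them among the 16.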
